A study of Homo sapiens with 48 samples.

Results

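The 50 genes described here encode proteins of the G2 phase and mitosis, from the kinase that starts division to the parts of the spindle and the cleavage furrow. They were chosen by name, as the rows of the deposited count tables whose gene name is 1 of 50 listed symbols, and all 50 were found among the 19923 genes counted. No measured value is part of that rule. Counts came from 48 poly(A) RNA libraries of Kelly and NGP, established human neuroblastoma lines that the labels give as MYCN-amplified and of WT genotype. Cultures of both lines received either 8 µM STM2457, which inhibits METTL3, a methyltransferase of RNA, or the vehicle DMSO, for 3 or 6 days. They were then exposed to 10 µg/ml of the transcription blocker actinomycin D for 0, 3 or 6 h. This makes 24 groups of 2 libraries, by line, agent, days and hours, and every group shares the same medium with serum. The labels do not say whether the 2 libraries of a group are separate cultures, so the p-values measure the spread between these libraries, which may be technical.

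Mitosis starts when the kinase CDK1 is joined by cyclin A or B (CCNA2, CCNB1, CCNB2) and is switched on by the CDC25 phosphatases. It ends when the anaphase-promoting complex, with its partners CDC20 and UBE2C, marks cyclin B and securin (PTTG1) for destruction and so frees separase (ESPL1). Many genes of the set are held down in resting and G1 cells by the DREAM complex, whose MuvB core sits on a promoter element called the CHR (cell cycle genes homology region). In G2 the same core works with the activators MYBL2 and FOXM1, and NF-Y binds CCAAT boxes beside the CHR. METTL3 writes N6-methyladenosine on mRNA, a mark known to act on how long transcripts last.

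Promoter sequences were looked at first, because a shared element is what this set is known for. RefSeq promoters (GRCh38.p14, 250 bases before to 50 after the start site) were matched by symbol for 42 of the 50 members. AURKA, BUB3, TTK, TPX2, BIRC5, UBE2C, FOXM1 and RACGAP1 had no entry. The CHR was searched as TTTGAA or TTCGAA and the CCAAT box as CCAAT, both on either strand. For members and for all genes alike, the first listed promoter of each gene symbol was taken. A CHR was present in 30 of the 42 promoters (71.4%), against 16.6% of those of all 27305 symbols with a promoter of this length. Within 60 bases before to 20 bases after the start, 22 of the 42 (52.4%) held a CHR, against 3.95% of all promoters. A CCAAT box was present in 32 of the 42 (76.2%), against 35.7% of all promoters. Promoters of 31 further G2 and mitosis genes were much alike, with a CHR in 22 (71%), a CHR near the start in 17 (54.8%) and a CCAAT box in 21 (67.7%). Among 20 promoters of G1/S and DNA replication genes, 2 (10%) held a CHR anywhere in the window, while 13 (65%) held a CCAAT box.

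Shown are the 130 bases before the start site of 5 members that the results below turn on, followed by CDC25B, whose whole 300-base window held neither motif. Each is read 5′ to 3′ on the gene's strand, and capitals mark a CHR or a CCAAT box. In MKI67 the second CHR shares a base with a CCAAT box on the other strand, and in HMMR a CCAAT and an ATTGG overlap.
MKI67 (chr10:128126424-128126553, minus strand): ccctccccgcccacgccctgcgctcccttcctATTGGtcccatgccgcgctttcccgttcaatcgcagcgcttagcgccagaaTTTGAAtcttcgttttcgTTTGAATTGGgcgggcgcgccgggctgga
CCNB2 (chr15:59105016-59105145, plus strand): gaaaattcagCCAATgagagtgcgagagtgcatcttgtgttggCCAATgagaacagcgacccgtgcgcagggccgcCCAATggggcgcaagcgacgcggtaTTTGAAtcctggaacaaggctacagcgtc
PLK1 (chr16:23678759-23678888, plus strand): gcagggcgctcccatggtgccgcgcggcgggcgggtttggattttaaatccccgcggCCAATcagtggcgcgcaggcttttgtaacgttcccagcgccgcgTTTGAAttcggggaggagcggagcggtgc
CDC20 (chr1:43358851-43358980, plus strand): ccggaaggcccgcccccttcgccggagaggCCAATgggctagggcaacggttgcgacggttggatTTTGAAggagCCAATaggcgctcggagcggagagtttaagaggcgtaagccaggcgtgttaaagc
HMMR (chr5:163460502-163460631, plus strand): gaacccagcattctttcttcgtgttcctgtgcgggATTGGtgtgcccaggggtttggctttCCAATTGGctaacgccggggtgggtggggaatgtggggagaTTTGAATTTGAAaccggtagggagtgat
CDC25B (chr20:3786821-3786950, plus strand): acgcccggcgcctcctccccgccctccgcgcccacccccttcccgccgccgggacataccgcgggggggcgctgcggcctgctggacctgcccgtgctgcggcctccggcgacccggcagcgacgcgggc
In MKI67, CCNB2, PLK1 and HMMR a CHR began 28 or 29 bases before the start, and in CDC20 it began 65 bases before. HMMR held 2 CHRs side by side and MKI67 held 2 that lie 12 bases apart. A match describes letters and is not a measured binding site.

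The libraries held 11139550 to 21942238 fragments in genes, of which the members took 0.591 to 1.16%. The ERCC spike-in sequences took 0.265 to 0.671% of all fragments. The labels were checked on 8 adrenergic neuroblastoma genes, which summed to 8155 to 8982 CPM (counts scaled to the library total) in Kelly and 2284 to 3342 CPM in NGP before actinomycin D. TH was at 2.91 CPM or less in NGP. Markers of other cell types were low in all 0 h libraries: 5 leukocyte genes summed to at most 9.68 CPM, 4 Schwann cell genes to at most 5.92 CPM and 3 endothelial genes to at most 3.36 CPM. The 10 mesenchymal markers summed to 72.0 to 154 CPM in Kelly and 169 to 213 CPM in NGP, carried mostly by PDGFRB, THY1 and COL1A1.

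Per length, the most abundant members in 3-day DMSO libraries of Kelly were the kinetochore protein CENPF (129 FPKM, CPM divided by the length in kilobases), the topoisomerase TOP2A (105 FPKM) and the proliferation antigen MKI67 (101 FPKM). In NGP the order was TOP2A (158 FPKM), the spindle assembly factor TPX2 (156 FPKM) and CENPF (148 FPKM). PRC1, which bundles antiparallel microtubules, was the lowest usable member in both lines, at 4.32 FPKM in Kelly and 4.95 FPKM in NGP. All 50 members passed the filter on low counts in each fit. NUSAP1 did so with 0 to 86 fragments per library, too few for its fitted changes to be given. Of its exon bases 81.4% are shared with AC087721.2 and, on the other strand, OIP5, and the part of this overlap in the low count was not tested. It was formally the highest or lowest member in most comparisons, so the next member is named in its place, chosen after the values were seen. PRC1 shares 57.6% of its exon bases with AC068831.8 and FOXM1 shares 15.9% with ITFG2 on the other strand, and no strand option is recorded, so their counts may be incomplete or mixed.

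To follow the set over time in culture, libraries of 6 days were compared with those of 3 days in DMSO, before actinomycin D. A change is called where the quasi-likelihood test of edgeR, adjusted after Benjamini and Hochberg over all genes tested, gave p under 0.05. CPM values are scaled by TMM, so that a typical gene shows no change. In NGP 45 of the 50 members fell, where 6.72% of the 14661 genes tested fell, and the median log2 change of the members was −0.80. In Kelly 27 of the 50 fell, where 5.74% of 16759 genes fell, with a median of −0.44. The median of all genes was 0.00 in both. In these bulk libraries fewer cells in G2 and mitosis and less of these RNAs per cell cannot be told apart.

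FOXM1, the transcription factor that activates late cell cycle genes, stood at 226 and 237 CPM in the 3-day Kelly libraries and at 156 and 142 CPM after 6 days. In NGP it stood at 185 and 188 CPM, then 114 and 120.3 CPM. The ranges did not overlap in either line, and FOXM1 fell by 0.64 ± 0.09 (log2 ± SE, n = 2 per group, adjusted p = 4e-10) in Kelly and by 0.67 ± 0.08 (adjusted p = 5.2e-10) in NGP. MKI67 went from 1325 and 1261 CPM to 947 and 905 CPM in Kelly, and from 790.1 and 771 CPM to 447 and 448 CPM in NGP. Its fall was 0.48 ± 0.06 in Kelly and 0.80 ± 0.06 in NGP. TOP2A, which untangles sister chromatids, fell by 0.39 ± 0.06 in Kelly and 0.83 ± 0.05 in NGP, from 705 and 640 CPM to 505 and 524 CPM and from 1036 and 975 CPM to 565 and 565 CPM.

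All 6 genes of CDK1, its cyclins and the CDC25 phosphatases fell in NGP, and 2 of the 6 fell in Kelly. CCNB1 was at 138 and 129 CPM in 3-day NGP cells and at 56.3 and 56.5 CPM after 6 days, a fall of 1.24 ± 0.13 (adjusted p = 4.3e-13). CCNB2 fell by 1.33 ± 0.12 and CDK1 by 0.78 ± 0.11 in NGP. In Kelly CCNB1 was at 140.2 and 156 CPM, then 103 and 107 CPM, and fell by 0.49 ± 0.14 (adjusted p = 0.0063). The Kelly changes of CDK1, −0.37 ± 0.13 (adjusted p = 0.058), and CCNB2, −0.36 ± 0.16 (adjusted p = 0.21), did not pass.

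The mitotic kinases are AURKA, which matures spindle poles, PLK1, which acts from mitotic entry to cytokinesis, and NEK2, a centrosome kinase. All 3 fell in NGP and 2 of 3 in Kelly. AURKA had the largest fall of any usable member in NGP, from 64.3 and 61.2 CPM to 24.02 and 24.6 CPM, a change of −1.37 ± 0.19 (adjusted p = 1.5e-08), with no overlap. In Kelly it went from 90.1 and 106 CPM to 62.3 and 68.6 CPM (−0.58 ± 0.18, adjusted p = 0.019). PLK1 changed by −1.12 ± 0.14 in NGP and −0.60 ± 0.13 in Kelly, and its Kelly libraries held 149.6 and 191 CPM at 3 days and 112 and 113 CPM at 6 days. CDC20, the activator of the anaphase-promoting complex, changed by −1.16 ± 0.16 in NGP, from 95.1 and 88.1 CPM to 41.3 and 40.6 CPM. In Kelly it changed by −0.63 ± 0.20 (adjusted p = 0.022), from 63.7 and 60.5 CPM to 41.8 and 38.2 CPM.

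Other roles differed in their counts. All 5 spindle checkpoint genes, all 4 of the chromosomal passenger complex and 6 of 7 kinesins fell in NGP, against 2, 2 and 3 in Kelly. Of the 6 kinetochore genes 4 fell in each line, and all 3 cytokinesis genes fell in both. KIF20A, a kinesin of the central spindle, was at 189 and 181 CPM and then at 90.7 and 76.2 CPM in NGP, a change of −1.15 ± 0.11. In Kelly KIF20A held 141 and 147 CPM and then 131 and 135 CPM, a change of −0.11 ± 0.11 that did not pass. HMMR, which links spindle microtubules, changed by −1.10 ± 0.11 in NGP, and CENPF by −0.48 ± 0.04. BUB3, a checkpoint protein, changed by −0.45 ± 0.14 (adjusted p = 0.022) in NGP and by −0.20 ± 0.12 in Kelly, the latter not past the test.

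Besides NUSAP1, the NGP members that did not pass were NDC80 (−0.66 ± 0.25) and SPC25 (−0.57 ± 0.24), both of the outer kinetochore, the cohesin guard SGO1 (−0.29 ± 0.17) and the central spindle kinesin KIF23 (−0.30 ± 0.13). In Kelly ESPL1 stood at 169 and 171 CPM and then at 102 and 89.3 CPM (−0.83 ± 0.11), and its call held in every refit with 1 library left out. PRC1 had the lowest usable value in Kelly, −0.98 ± 0.32 (adjusted p = 0.037). SPC25 fell by 0.91 ± 0.25 in Kelly, with 35.8 and 41.2 CPM before and 19.4 and 21.7 CPM after. CENPA, the centromere histone, was the 1 Kelly member with a positive change, 0.24 ± 0.23, and its 6-day libraries were far apart at 47.6 and 28.1 CPM.

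Leaving out 1 library at a time left 42 to 45 calls in NGP and 18 to 22 in Kelly. In Kelly the calls of AURKA (−0.69 to −0.46), CCNB1 (−0.57 to −0.42) and SPC25 (−1.005 to −0.80) ended without 3-day DMSO replicate 2 or without either 6-day DMSO replicate, CDC20 (−0.70 to −0.57) and PRC1 (−1.11 to −0.84) ended without any 1 of the 4, and PLK1 (−0.41) ended without 3-day replicate 2. In NGP BUB3 (−0.55 to −0.35) ended in 3 of the 4 refits, without 3-day replicate 1 or either 6-day replicate. Scaled to the ERCC spike-ins, whose point of addition is not given in the sources used here, the median of all Kelly genes rose by 0.35 and that of the members was −0.06, with 2 members lower and 1 higher, so the Kelly fall is one relative to other genes. The NGP members had a median of −0.97 on that scale, where all genes had −0.15. The share of all genes called was not counted on the ERCC scale. Counts of members on it, here and below, therefore do not set the members apart. Mitochondrial transcripts took 5.32 to 5.86% of fragments in 3-day and 6.70 to 7.38% in 6-day Kelly DMSO libraries, and mesenchymal markers went from 72.0 to 87.6 CPM to 152.5 to 154 CPM. In NGP DMSO libraries mitochondrial transcripts went from 4.03 to 4.21% to 4.62 to 5.25%, adrenergic markers from 2986 to 3060.3 CPM to 2284 to 2473 CPM and mesenchymal markers from 178 to 204 CPM to 196 to 213 CPM. Of the mesenchymal markers, COL1A2, DCN, FOSL1, LUM, PRRX1 and TWIST2 were at 0 in some Kelly libraries. Their part in the result was not tested.

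**Figure D1:**
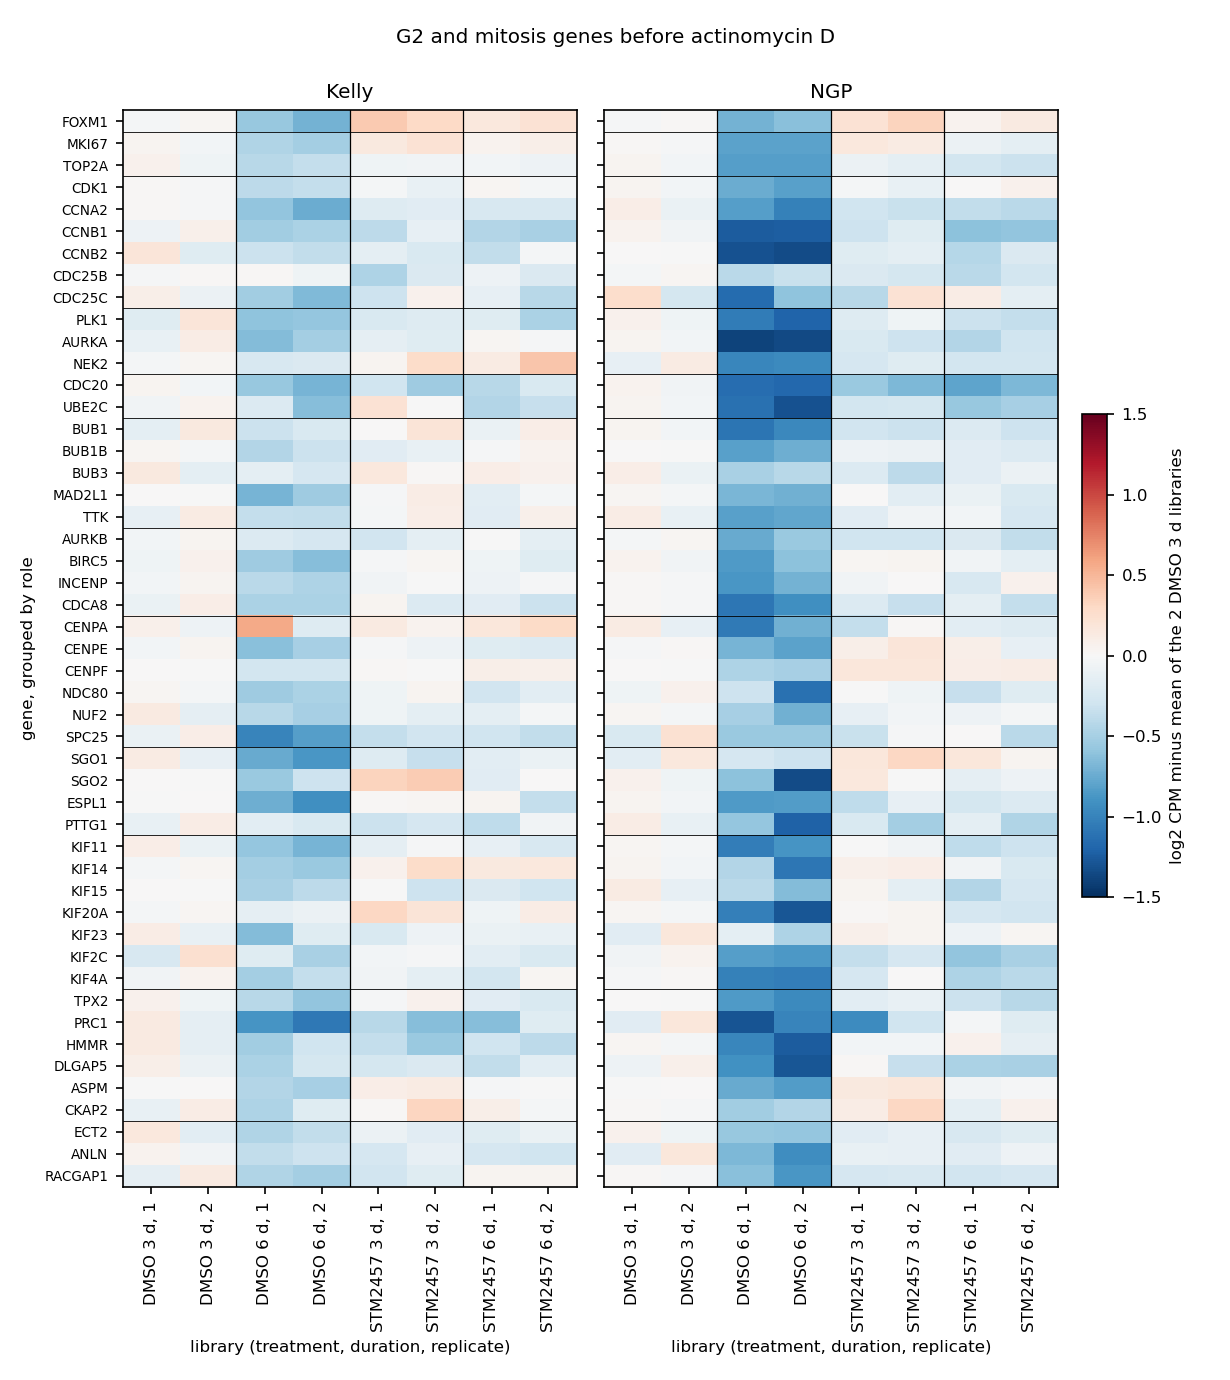
Colour gives log2 CPM minus the mean of the 2 DMSO 3-day libraries for each member (rows, grouped by role, NUSAP1 left out) in each library before actinomycin D (columns, 2 replicates per group). The DMSO 6-day columns are blue in nearly all rows of NGP and, less deeply, of Kelly, while the STM2457 columns stay closer to white at both durations.

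In STM2457 the same comparison gave few calls. In Kelly 0 of 50 members passed edgeR's test between 6 and 3 days, with 6 at an unadjusted p under 0.05, 2 lower by DESeq2 and 0 by limma-voom, where 2.39% of all genes passed. The members' median was −0.02. FOXM1 was at 304 and 285 CPM and then 259 and 269.7 CPM (−0.16 ± 0.08, adjusted p = 0.54), and MKI67 changed by −0.12 ± 0.06 (adjusted p = 0.44). The lowest value was that of UBE2C, the ubiquitin-conjugating enzyme of the anaphase-promoting complex, at −0.50 ± 0.18 (adjusted p = 0.14).

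In NGP 4 of 50 members fell with time in STM2457, where 2.31% of all genes fell, and the median was −0.10. They were MKI67 (−0.26 ± 0.06), TOP2A (−0.18 ± 0.05), TPX2 (−0.24 ± 0.06) and KIF11, the kinesin that pushes spindle poles apart (−0.32 ± 0.08). KIF11 stood at 227 and 219.9 CPM at 3 days and at 175 and 184 CPM at 6 days. CCNB1 had the lowest value, −0.36 ± 0.12, and did not pass (adjusted p = 0.08). DESeq2 called 9 members and limma-voom 7. Without STM2457 3-day replicate 1 or 6-day replicate 2, 2 calls were left, TOP2A (−0.22 to −0.15) being lost in both. KIF11 (−0.35 to −0.28) was lost without 3-day or 6-day replicate 1, and TPX2 (−0.28 to −0.19) without 3-day or 6-day replicate 2. With ERCC scaling all genes shifted by −0.24 in Kelly and −0.30 in NGP and the members' medians were −0.29 and −0.41, with 21 and 34 members lower.

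STM2457 was next set against DMSO at each duration. The DMSO 6-day libraries before actinomycin D also serve in the comparison over time above, in the 6-day decay comparison and in the differences below, so these results are not independent. After 3 days the members were near their DMSO level. In Kelly 1 member rose, where 0.579% of genes rose and 1.68% passed in either direction, and the median of the members was −0.08. It was FOXM1, at 226 and 237 CPM in DMSO and 304 and 285 CPM in STM2457, a rise of 0.35 ± 0.08 (adjusted p = 0.0067). MKI67 (0.18 ± 0.06, adjusted p = 0.07) and SGO2, a guard of centromeric cohesin with the highest value (0.36 ± 0.18, adjusted p = 0.54), did not pass. FOXM1 lost its call without replicate 1 of either group (0.30 to 0.40). DESeq2 called 3 members and limma-voom 2.

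In NGP 3 members passed at 3 days, where 3.7% of genes passed, and the median was −0.12. FOXM1 rose from 185 and 188 CPM to 218 and 235 CPM, by 0.28 ± 0.08 (adjusted p = 0.032). CENPF rose from 1734 and 1709 CPM to 1931 and 1938 CPM, by 0.17 ± 0.04 (adjusted p = 0.0044). CDC20 fell from 95.1 and 88.1 CPM to 62.3 and 57.2 CPM, by 0.62 ± 0.15 (adjusted p = 0.0076). None of these groups overlapped, but at most 1 of the 3 calls was left after any 1 of the 4 libraries was left out (FOXM1 0.22 to 0.33, CENPF 0.16 to 0.18, CDC20 −0.68 to −0.56). DESeq2 called 8 members, of which 6 were lower. On the ERCC scale the Kelly 3-day median turned to 0.32, with 21 members higher, while all genes stood at 0.38.

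After 6 days most members were above DMSO. In NGP 40 of 50 rose, where 4.45% of genes rose, with a median of 0.61. In Kelly 19 of 50 rose, where 2.7% of genes rose, with a median of 0.33. HMMR had the largest rise in NGP, from 56.0 and 46.5 CPM in DMSO to 115.2 and 100.002 CPM in STM2457 (1.07 ± 0.11, adjusted p = 1.5e-12). AURKA went from 24.02 and 24.6 CPM to 46.4 and 51.1 CPM (1.00 ± 0.19) and CCNB2 from 43.2 and 42.2 CPM to 79.4 and 91.9 CPM (1.00 ± 0.12). No DMSO library reached the STM2457 range in these 3 genes.

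By role, 5 of 6 genes of the CDK1 module, all 3 mitotic kinases, all 4 passenger complex genes, 4 of 5 checkpoint genes and 6 of 7 spindle microtubule genes rose in NGP. CDK1 was at 69.9 and 66.7 CPM in DMSO and 117 and 122 CPM in STM2457 (0.81 ± 0.11), and KIF20A at 90.7 and 76.2 CPM against 155 and 151 CPM (0.87 ± 0.11). PLK1 rose by 0.78 ± 0.14, FOXM1 by 0.77 ± 0.08, MKI67 by 0.68 ± 0.06, CCNB1 by 0.64 ± 0.13 and TOP2A by 0.53 ± 0.05. PRC1 rose by 1.04 ± 0.25 on 11.0 and 13.5 CPM in DMSO, and lost its call without DMSO replicate 1 (range over refits 0.89 to 1.198). CDC20 (0.42 ± 0.16, adjusted p = 0.087), BUB3 (0.32 ± 0.14, adjusted p = 0.19) and CDC25B (0.03 ± 0.09) did not pass.

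In Kelly FOXM1 had the largest rise of the usable members, from 156 and 142 CPM to 259 and 269.7 CPM (0.83 ± 0.09, adjusted p = 2.2e-15). The kinesin KIF14 (0.69 ± 0.13), SGO1 (0.68 ± 0.21, adjusted p = 0.038) and ESPL1 (0.68 ± 0.11) followed. MKI67 rose from 947 and 905 CPM to 1340.3 and 1369.6 CPM (0.55 ± 0.06). TOP2A rose by 0.32 ± 0.06. AURKA, at 62.3 and 68.6 CPM against 99.7 and 96.3 CPM, rose by 0.58 ± 0.18 (adjusted p = 0.033). Of the members named for NGP above, HMMR did not pass here, at 34.1 and 39.9 CPM against 39.6 and 37.2 CPM (0.06 ± 0.19). Neither did CCNB2 (0.16 ± 0.16), KIF20A (0.14 ± 0.11), CCNB1 (0.03 ± 0.14) and PRC1 (0.58 ± 0.32). CDC25B had the lowest value, −0.13 ± 0.11.

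The Kelly count fell from 19 to between 9 and 12 when any 1 of the 4 libraries was left out (11 and 12 without DMSO replicate 1 and 2, 11 and 9 without STM2457 replicate 1 and 2), and AURKA (0.51 to 0.65) and SGO1 (0.63 to 0.74) lost their calls in all 4 refits. In NGP 32 to 35 calls were left. With ERCC scaling the NGP median was 0.56 with 37 members higher, where all genes stood at −0.02. In Kelly, by contrast, all genes stood at −0.21 and the members' median was 0.07, with 4 members higher and 1 lower. Beside the 6-day effect, mitochondrial transcripts took 5.98 to 6.04% of fragments in Kelly STM2457 libraries and 5.20 to 5.49% in NGP ones, against 6.70 to 7.38% and 4.62 to 5.25% in DMSO. Adrenergic markers summed to 2974 to 3018 CPM in NGP STM2457 libraries, against 2284 to 2473 CPM in DMSO. The part of these shifts was not tested.

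**Figure D2:**
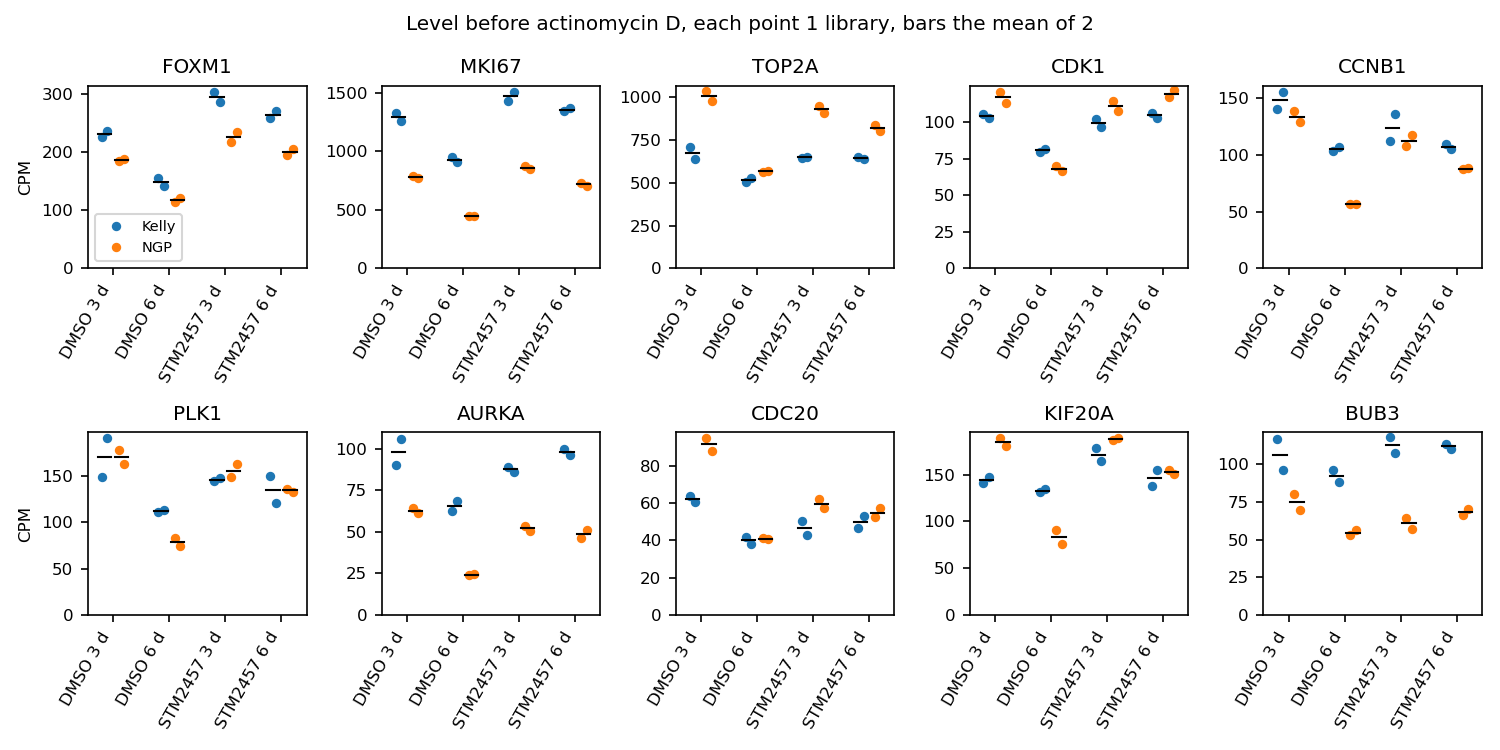
Each point is the CPM of 1 library before actinomycin D for 10 members, by agent and days (x axis), in Kelly (blue) and NGP (orange), with bars for the mean of 2. FOXM1, MKI67 and TOP2A are lowest in the DMSO 6-day libraries of both lines, while KIF20A and CCNB1 separate the DMSO 6-day and STM2457 6-day libraries in NGP and overlap or nearly overlap in Kelly.

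Whether the STM2457 effect itself changed from 3 to 6 days was tested as a difference of differences. In NGP the effect was larger at 6 days for 36 of 50 members, where 1.75% of genes had a larger effect, and the median difference was 0.71. All 50 values were positive. With ERCC scaling the median was 0.57 and 29 members were called, where all genes stood at −0.12 and their share called was not counted. The difference was 1.27 ± 0.26 for AURKA, 1.17 ± 0.17 for CCNB2, 1.11 ± 0.15 for HMMR, 0.54 ± 0.08 for MKI67 and 0.49 ± 0.12 for FOXM1. PRC1 had the largest, 1.64 ± 0.35, from 24 and 30.2 CPM (DMSO) against 14.0 and 21.8 CPM (STM2457) at 3 days to 11.0 and 13.5 CPM against 26.5 and 23.8 CPM at 6 days. Leaving out 1 library left 31 to 36 calls, and FOXM1 (0.44 to 0.55) lost its call without STM2457 3-day replicate 1.

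In Kelly the effect was larger at 6 days for 8 members, where 0.68% of genes had a larger effect, with a median of 0.39. These were FOXM1 (0.48 ± 0.12), MKI67 (0.37 ± 0.08), TOP2A (0.38 ± 0.09), CENPF (0.35 ± 0.07), KIF11 (0.53 ± 0.14), ESPL1 (0.66 ± 0.15), the checkpoint kinase relative BUB1B (0.54 ± 0.14) and RACGAP1, a cytokinesis protein (0.76 ± 0.19). RACGAP1 held 86.0 and 103 CPM in DMSO and 77.0 and 83.1 CPM in STM2457 at 3 days, then 69.0 and 66.3 CPM against 97.3 and 96.9 CPM at 6 days. These calls were few and fragile. Without 1 of the 8 libraries 2 to 6 members were called, fewer than 6 in every refit except that without DMSO 6-day replicate 1, and BUB1B (0.47 to 0.59) was lost in all 8. DESeq2 called 16. With ERCC scaling the median turned to −0.26 while all genes stood at −0.62, and FOXM1, MKI67, TOP2A, CENPF, KIF11 and BUB1B turned negative.

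**Figure D3:**
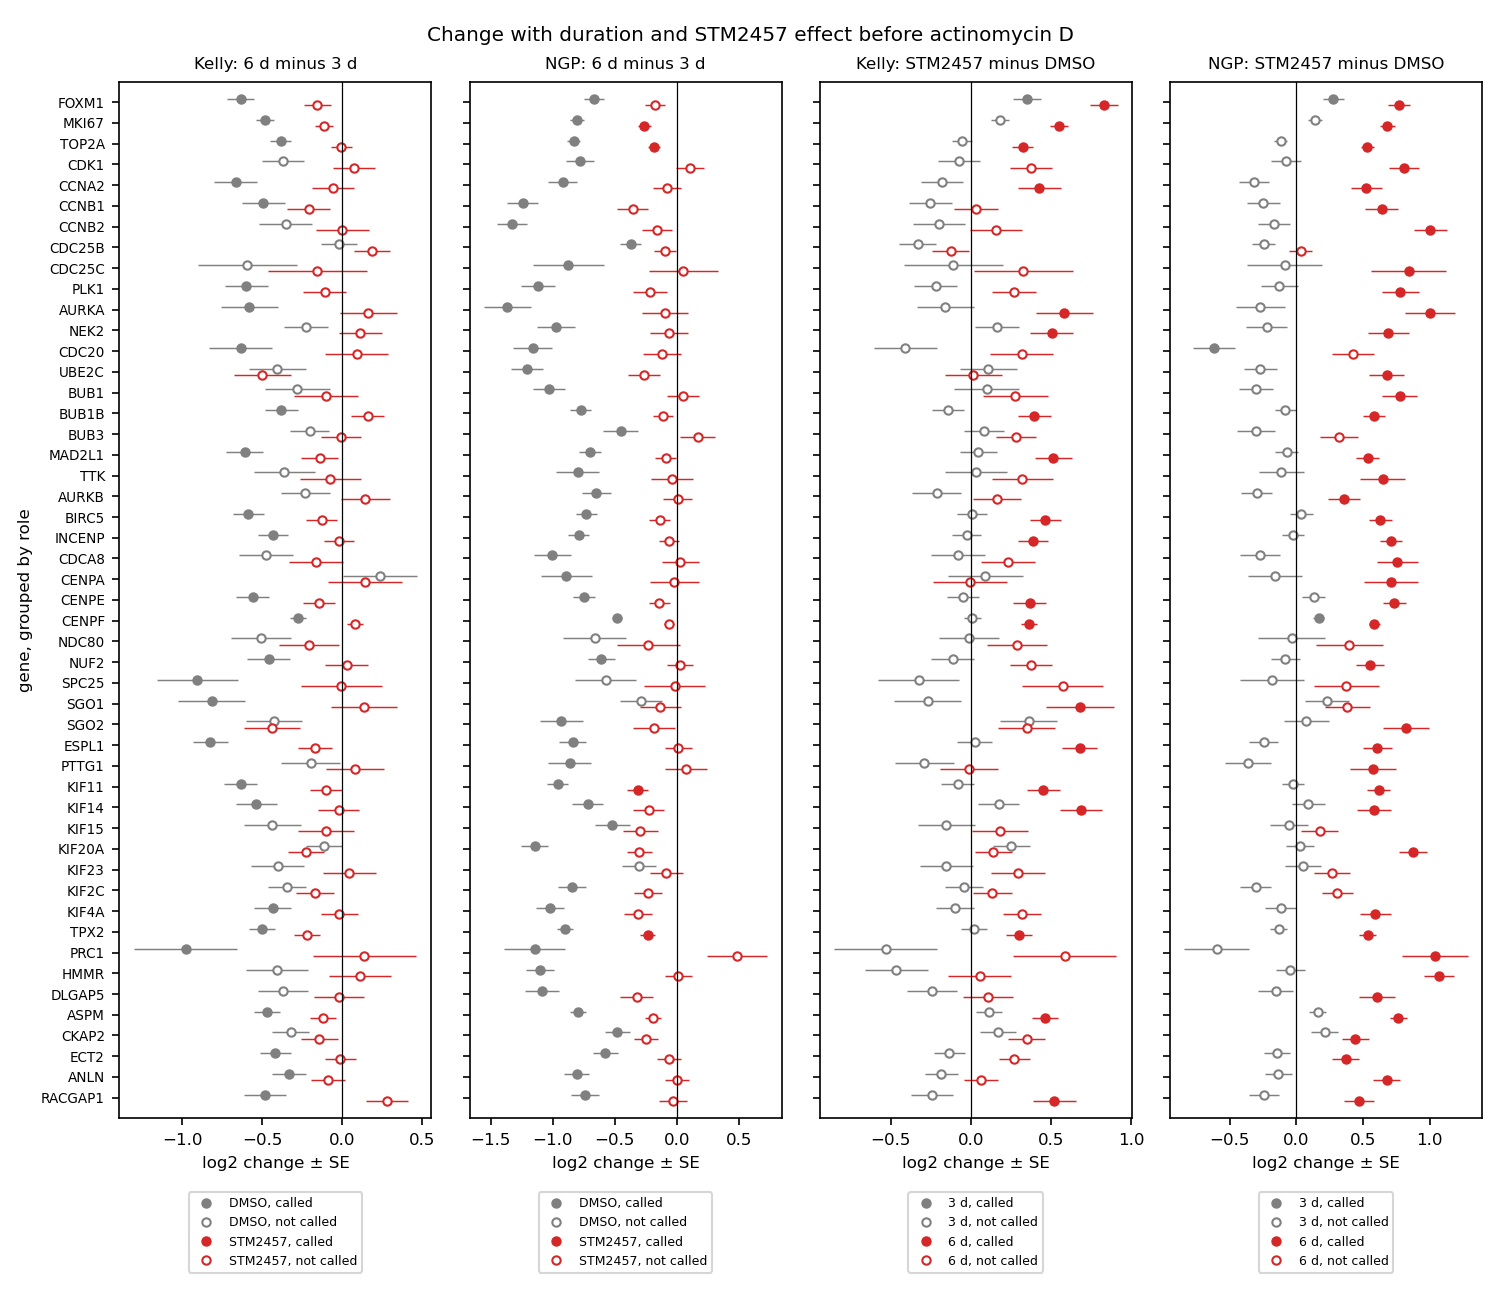
Points give the log2 change of each member (rows, grouped by role, NUSAP1 left out) with its SE, filled where called. The left panels show 6 days minus 3 days in DMSO (grey) and STM2457 (red) for Kelly and NGP, and the right panels show STM2457 minus DMSO at 3 days (grey) and 6 days (red). Most DMSO points lie left of 0 (49 of 50 members in each line, NUSAP1 counted) with medians of −0.44 and −0.80, and most 6-day effects lie right of 0 (47 in Kelly and 49 in NGP) with medians of 0.33 and 0.61.

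Other cell cycle lists were read beside these values. Over time in DMSO, 19 of 24 G1/S and DNA replication genes fell in Kelly (median −0.68) and 17 in NGP (−0.37), and 24 and 26 of 40 further G2 and mitosis genes fell (−0.57 and −0.63). MYBL2, the activator that joins MuvB, fell by 0.87 ± 0.08 in Kelly and 0.81 ± 0.07 in NGP, and RRM2, a subunit of the enzyme that makes DNA precursors, by 1.04 ± 0.07 and 0.73 ± 0.06. At 6 days STM2457 raised 16 G1/S genes in Kelly (median 0.49) and 8 in NGP (0.25), and 19 further G2 and mitosis genes in each line (0.48 and 0.38). In that comparison 2.7% of all genes rose in Kelly and 4.45% in NGP. MYBL2 rose by 0.91 ± 0.08 in Kelly and 0.63 ± 0.07 in NGP. Of the 13 subunits of the anaphase-promoting complex, which works in mitosis but whose subunit genes are expressed throughout the cycle, 1 fell over time in NGP DMSO cells. Of 13 genes of the DREAM and MuvB complexes 2 fell and 1 rose over time in Kelly, and 3 fell and 1 rose in NGP. Over all genes 5.74% fell and 2.78% rose over time in Kelly DMSO cells, and 6.72% fell and 5.37% rose in NGP ones. Single calls among 13 genes are thus near the background. CDKN1A, the p21 inhibitor of cyclin-dependent kinases, was lower under STM2457 in NGP, by −1.70 ± 0.28 at 3 days and −2.17 ± 0.28 at 6 days, and by −0.79 ± 0.21 at 3 days in Kelly. It is 1 gene from a list of 13 G1 cyclins, CDKs and inhibitors, named for its small adjusted p. The rest of that list and the Kelly 6-day value are not described here, and a link to the members was not tested.

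Transcript turnover was then read from the change over 6 h of actinomycin D. Short-lived transcripts gave the control: MYCN changed by −3.68 to −2.79 in the 4 Kelly conditions and −3.34 to −2.99 in NGP, and JUN by −2.57 to −1.93 and −3.41 to −1.55. Because a typical gene is at 0 after TMM scaling, a value above 0 means a loss slower than that of the typical gene and not a gain of RNA. Members were called in both directions on this scale. In Kelly DMSO cells 13 were lower and 9 higher at 3 days, and 16 lower and 6 higher at 6 days, where 15.6% and 13.3% of all genes were lower and 14.4% and 13.2% higher. In NGP DMSO cells 9 were lower and 23 higher at 3 days, and 6 lower and 25 higher at 6 days, where 18.4% and 18.7% of genes were lower and 19% and 18% higher. The higher counts in Kelly and the lower counts in NGP are near these shares of all genes or below them. The members' medians were −0.05 and −0.12 in Kelly and 0.21 and 0.26 in NGP, the NGP 3-day value turning to −0.04 with library-size scaling.

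AURKA had the largest loss of the members in 3-day Kelly cells of both agents. It went from 90.1 and 106 CPM through 43.2 and 52.6 CPM at 3 h to 20.01 and 30.9 CPM at 6 h in 3-day DMSO cells, a change of −1.94 ± 0.19 (adjusted p = 7.6e-19). The changes in Kelly 6-day DMSO, 3-day STM2457 and 6-day STM2457 cells were −1.90, −2.22 and −1.91. In NGP AURKA went from 64.3 and 61.2 CPM through 50.8 and 46.2 CPM to 32.4 and 31.9 CPM in 3-day DMSO cells, a change of −0.96 ± 0.19. It changed by −0.78 and −0.76 in STM2457 at 3 and 6 days, and by −0.37 ± 0.19 (adjusted p = 0.13) in 6-day DMSO cells, where it started at 24.02 and 24.6 CPM and ended at 20.3 and 17.2 CPM. The call in NGP 3-day STM2457 cells ended without the 6 h replicate 2 (range over refits −1.17 to −0.50).

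PLK1 was lost in all 8 conditions, with changes from −1.84 to −1.36 in Kelly and from −2.18 to −1.63 in NGP. In NGP 6-day STM2457 cells it held 136 and 133 CPM at 0 h, 94.7 and 92.3 CPM at 3 h and 30.8 and 28.3 CPM at 6 h. CCNB1 was lower in all 8 conditions too, by −1.69 to −1.22 in Kelly and −1.24 to −0.69 in NGP. In Kelly 3-day DMSO cells CCNB1 held 140.2 and 156 CPM, then 116 and 105 CPM, then 68.4 and 58.8 CPM, with no overlap between 0 h and 6 h. KIF23 changed by −1.91 to −1.37 in Kelly and −1.43 to −0.56 in NGP, and lost its call in NGP 3-day DMSO cells without 0 h replicate 2 (−0.72 to −0.39 over refits).

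NDC80, which ties microtubules to the kinetochore, changed by −1.37 to −0.48 in Kelly and −2.44 to −1.08 in NGP. Its change was the largest of the members in NGP 6-day STM2457 cells, from 27.6 and 31.0 CPM to 5.57 and 5.16 CPM. In Kelly 6-day DMSO cells, where its change was −0.48 ± 0.19 (adjusted p = 0.046), the call ended without either 0 h replicate or without 6 h replicate 1 (−0.67 to −0.31), and in NGP 6-day DMSO cells it ended without 0 h replicate 1 (−1.43 to −0.62). CDC20 was lower in 7 of the 8 conditions, by −1.41 to −0.60 in Kelly and −0.72 to −0.57 in NGP, the exception being Kelly 6-day DMSO cells (−0.31 ± 0.20, adjusted p = 0.28). The call of CDC20 ended in Kelly 3-day DMSO cells without 0 h replicate 1 or 6 h replicate 2 (−0.72 to −0.47), in NGP 6-day DMSO cells without 6 h replicate 1 (−0.75 to −0.42) and in NGP 6-day STM2457 cells without 6 h replicate 2 (−0.64 to −0.48).

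MKI67 divided the lines. In Kelly 3-day DMSO cells it held 1325 and 1261 CPM, then 1024 and 1104 CPM, then 837 and 840.2 CPM, and its change was −0.63 ± 0.06. In the other Kelly conditions it changed by −0.65, −0.46 and −0.35. In NGP 3-day DMSO cells it held 790.1 and 771 CPM, then 833 and 846 CPM, then 739 and 725 CPM, a change of −0.09 ± 0.06 that did not pass. The other NGP values were 0.03 (6-day DMSO), −0.14 ± 0.06 (3-day STM2457, adjusted p = 0.047) and −0.03 (6-day STM2457), and the 3-day STM2457 call ended in 3 of the 4 refits, without either 0 h replicate or 6 h replicate 1 (−0.18 to −0.12).

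FOXM1 and TOP2A outlasted the typical gene. FOXM1 changed by 0.48 to 0.63 in Kelly and 0.21 to 0.57 in NGP, and TOP2A by 0.21 to 0.46 and 0.44 to 0.70, on the TMM scale. In NGP 3-day DMSO cells TOP2A held 1036 and 975 CPM, then 1391 and 1359.97 CPM, then 1612 and 1651 CPM. HMMR changed by 0.63 ± 0.11 and 0.87 ± 0.11 in 3-day and 6-day NGP DMSO cells. The FOXM1 call in NGP 6-day DMSO cells (0.21 ± 0.08) ended without either 0 h replicate or 6 h replicate 1 (0.18 to 0.26), and that of TOP2A in Kelly 6-day STM2457 cells without replicate 2 of either time (0.14 to 0.27). BIRC5, MAD2L1, CDC25B and ECT2 were also among the slowly lost members in some conditions.

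On the ERCC scale most of these values were negative, but not all in Kelly. HMMR was negative in both NGP DMSO conditions, and TOP2A in all 4 NGP and 3 of 4 Kelly conditions. FOXM1 was negative in all 4 NGP and 2 of 4 Kelly conditions. The members' median was then −0.48 and −1.40 in Kelly DMSO cells at 3 and 6 days and −0.59 and −0.79 in NGP, where all genes stood at −0.34, −1.18, −0.81 and −1.10. Between 30 and 49 members were called lower in each of the 8 comparisons on this scale. The share of all genes called lower was not counted here, so these counts do not set the members apart. Relative to all genes the members' median stood at −0.14 and −0.22 in Kelly DMSO cells and at 0.22 and 0.31 in NGP DMSO cells on this scale.

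In STM2457 the counts lower and higher were 19 and 5 (3 days) and 18 and 5 (6 days) in Kelly, where 14% of genes were lower at either duration and 12.8% and 12.4% were higher. In NGP they were 10 and 14 at 3 days and 13 and 9 at 6 days, where 15.9% and 16.4% of genes were lower and 16.6% and 15.7% higher. The higher counts in Kelly, and in NGP the 10 lower at 3 days and the 9 higher at 6 days, are near these shares. The NGP counts of 24 and 22 fell to 14 each without 6 h replicate 1 (3 days) and without 0 h replicate 1 (6 days).

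**Figure D4:**
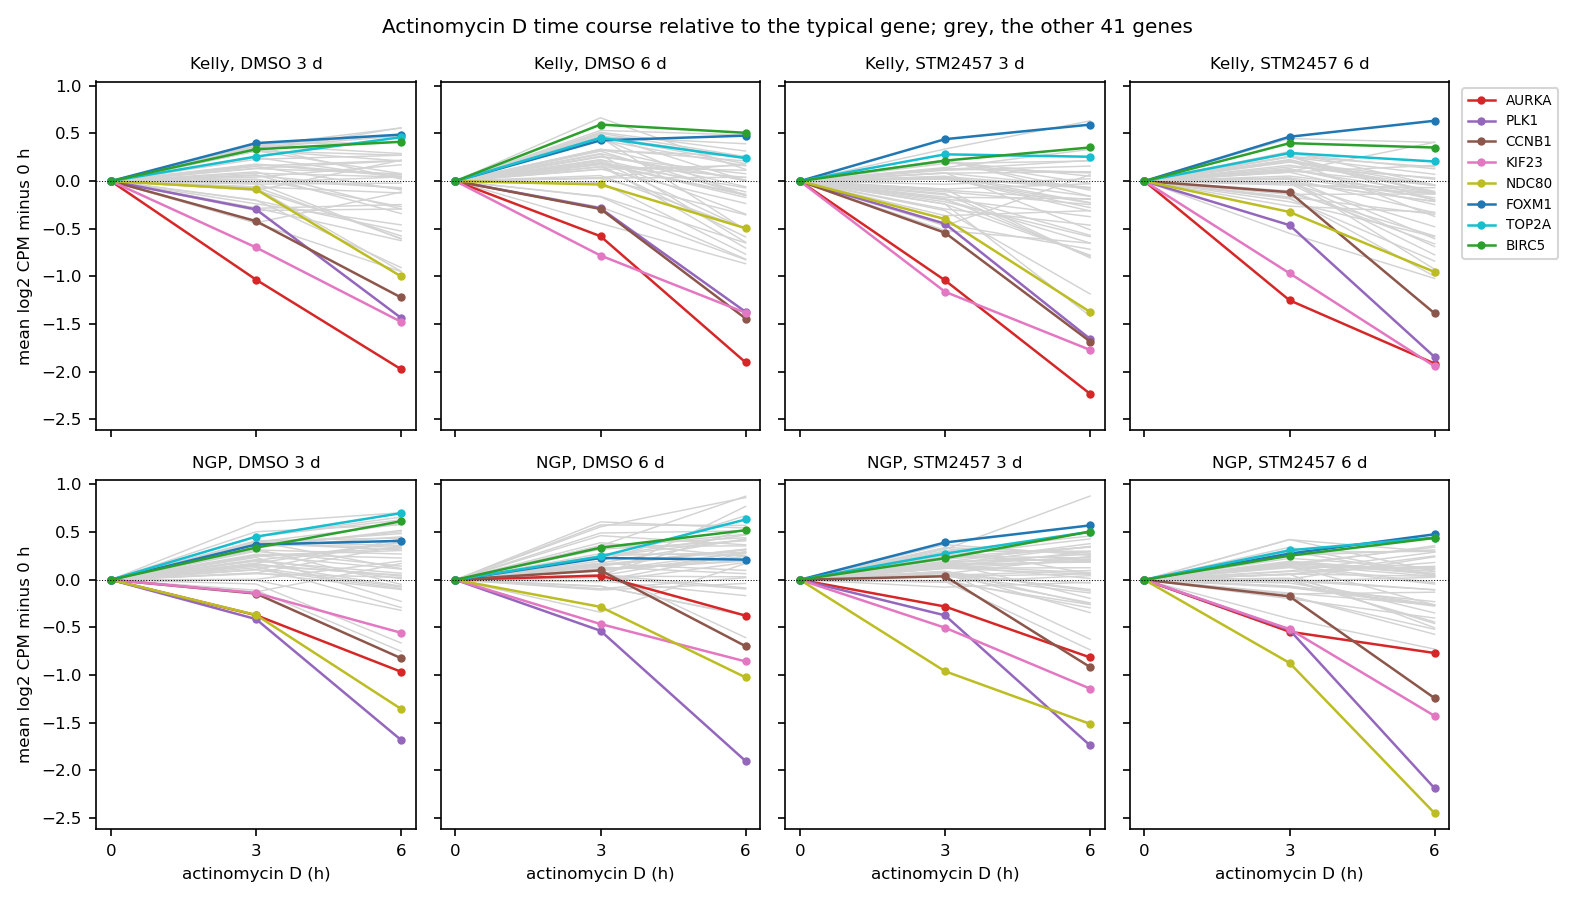
Lines give mean log2 CPM minus the 0 h value over 0, 3 and 6 h of actinomycin D for each member but NUSAP1, in Kelly (top) and NGP (bottom) by agent and days. AURKA, PLK1, CCNB1, KIF23 and NDC80 run down in most panels, while FOXM1, TOP2A and BIRC5 run above 0 on this scale, which is relative to the typical gene.

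To ask whether STM2457 altered these losses, the change over 6 h in STM2457 was compared with that in DMSO. A negative value means a lower change over 6 h in STM2457 than in DMSO, relative to the typical gene of each arm. In NGP at 6 days the difference was negative for 6 members by edgeR's adjusted test, where 1.18% of genes were lower, and 44 of 50 values were negative, with a median of −0.35. The 6 were HMMR (−0.69 ± 0.15), UBE2C (−0.77 ± 0.18), CCNB2 (−0.63 ± 0.17), the checkpoint kinase BUB1 (−0.62 ± 0.18), BUB1B (−0.46 ± 0.12) and NDC80 (−1.36 ± 0.38).

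HMMR shows the form of this difference. In DMSO it held 56.0 and 46.5 CPM at 0 h and 93.3 and 94.0 CPM at 6 h, and in STM2457 115.2 and 100.002 CPM at 0 h and 124 and 120 CPM at 6 h. UBE2C went from 40.0 and 34.9 CPM to 67.3 and 68.5 CPM in DMSO and from 58.6 and 61.2 CPM to 64.0 and 63.4 CPM in STM2457. The 2 arms thus differed more at 0 h than at 6 h. The DMSO 0 h libraries in this difference are also those against which the 6-day STM2457 rise was measured. Calls numbered 2 to 7 in refits without 1 library, with 2 left without DMSO 0 h replicate 2 and 3 without either STM2457 0 h replicate. NDC80 (−1.83 to −1.02) was lost in 6 of the 8 refits, BUB1 (−0.84 to −0.38) in 7, CCNB2 (−0.73 to −0.52) in 5, BUB1B (−0.50 to −0.42) in 3, HMMR (−0.83 to −0.56) without DMSO 0 h replicate 2 or STM2457 0 h replicate 1, and UBE2C (−0.87 to −0.68) without DMSO 0 h replicate 2. DESeq2 called 15 and limma-voom 3, and ERCC scaling gave 8 members higher with the median turned to 0.07 while all genes stood at 0.41.

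In NGP at 3 days 2 members differed, where 0.246% of genes were lower, and most member values were again negative. CENPF (−0.27 ± 0.06, adjusted p = 0.0053) went from 1734 and 1709 CPM to 2191 and 2171 CPM in DMSO, and from 1931 and 1938 CPM to 2043 and 2031 CPM in STM2457. CENPE, the kinetochore motor (−0.48 ± 0.12, adjusted p = 0.036), went from 199.9 and 203 CPM to 309 and 349 CPM in DMSO and from 214 and 228 CPM to 274 and 244 CPM in STM2457. CENPE lost its call in 6 of the 8 refits (−0.56 to −0.39), holding only without DMSO 6 h or STM2457 6 h replicate 1, and 0 members were called with ERCC or library-size scaling.

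In Kelly at 3 days 0 members passed edgeR's test, with 10 at an unadjusted p under 0.05, 1 by DESeq2 and 0 by limma-voom, where 0.221% of genes passed. UBE2C had the lowest value, −0.87 ± 0.25 (adjusted p = 0.13). On the TMM scale most member values in Kelly were negative at 3 days and at 6 days, as in NGP. At 6 days 1 member differed, where 0.149% of genes were higher. MKI67 went from 947 and 905 CPM to 599 and 582 CPM in DMSO and from 1340.3 and 1369.6 CPM to 1096 and 1034 CPM in STM2457, a difference of 0.30 ± 0.08 (adjusted p = 0.048). Its call ended without the filter on low counts and in every refit but that without STM2457 6 h replicate 2 (0.26 to 0.34). ERCC scaling moved all genes by −0.37 at 3 days and 0.70 at 6 days and gave 33 members lower and 31 members higher.

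The lines were compared last, in 1 fit of all 48 libraries. The fall over time in DMSO was larger in NGP for 14 members, where 1.19% of genes had a lower difference, with a median NGP minus Kelly of −0.35. KIF20A differed by −1.03 ± 0.15, CCNB2 by −0.97 ± 0.20, CCNB1 by −0.75 ± 0.18, TOP2A by −0.45 ± 0.08 and MKI67 by −0.32 ± 0.08. CENPA had the lowest value, −1.12 ± 0.33 (adjusted p = 0.045), and lost its call in 7 of the 8 refits (−1.45 to −0.69), holding without Kelly 6-day DMSO replicate 2. Refits without 1 library gave 5 to 11 calls, 7 or 8 without Kelly DMSO libraries or NGP 3-day ones and 5 without NGP 6-day replicate 2. CCNB1 (−0.82 to −0.67) lost its call without Kelly 3-day replicate 1, and MKI67 (−0.35 to −0.28) without Kelly 3-day replicate 2, Kelly 6-day replicate 1 or NGP 3-day replicate 1.

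The STM2457 effect at 3 days differed between the lines for 0 members by edgeR's test, with 4 at an unadjusted p under 0.05 and 0 by DESeq2 and limma-voom, where 0.161% of genes differed. At 6 days it was larger in NGP for 5 members, where 0.692% of genes had a higher difference, with a median of 0.22. These were HMMR (1.03 ± 0.19), CCNB2 (0.87 ± 0.20), KIF20A (0.75 ± 0.15), the cleavage furrow protein ANLN (0.63 ± 0.15) and CENPF (0.24 ± 0.06). The calls of HMMR and KIF20A held in all 8 refits without 1 library. CENPF (0.21 to 0.25) lost its call in all 8, ANLN (0.50 to 0.76) without Kelly DMSO or STM2457 replicate 2 or NGP DMSO or STM2457 replicate 2, and CCNB2 (0.70 to 1.04) without Kelly STM2457 replicate 1 or NGP STM2457 replicate 2. The count was 2 to 4 in these refits.

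The change over 6 h of actinomycin D in DMSO, averaged over both durations, was higher in NGP for 21 members, where 3.41% of genes were higher, with a median of 0.34. AURKA differed by 1.28 ± 0.19, SGO2 by 0.94 ± 0.18, HMMR by 0.74 ± 0.13, KIF23 by 0.73 ± 0.17 and MKI67 by 0.63 ± 0.06. SGO2 went from 62.9 and 62.7 CPM to 31.7 and 33.4 CPM in Kelly 3-day DMSO cells, and from 62.0 and 56.9 CPM to 60.2 and 50.8 CPM in NGP. PLK1 did not pass, at −0.36 ± 0.17 (adjusted p = 0.24). Refits without 1 library gave 18 to 23 calls, and ERCC scaling gave 17 members higher with a median of 0.24.

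**Figure D5:**
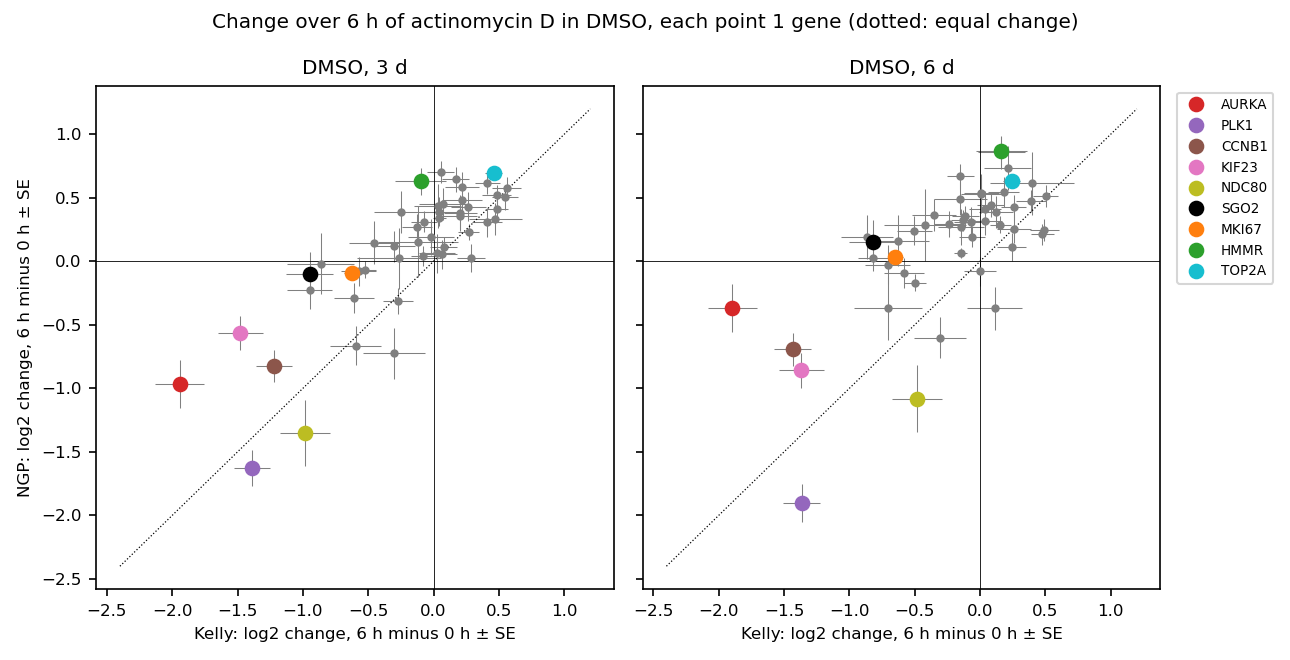
Each point is 1 member but NUSAP1, with its log2 change over 6 h of actinomycin D ± SE in Kelly (x axis) and NGP (y axis) in DMSO cells of 3 days (left) and 6 days (right), relative to the typical gene. AURKA, SGO2, MKI67 and HMMR lie above the dotted line of equal change, and PLK1 and NDC80 lie below it or near it.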

How the data were processed

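The values are raw fragment counts per gene that the authors made with featureCounts 1.5.3 on the protein-coding genes of GENCODE 33 and 92 ERCC sequences, per the file headers. Per the submitters' processing notes, reads were handled on GRCh38 with HISAT2 2.1.0, Subread 1.5.3, FastQC 0.11.5 and Trimmomatic 0.36. Settings for strand, and the step at which ERCC RNA was added, are not given in the sources used here. Groups came from the sample titles, and no library was left out. The 2 libraries of a group differed by more than sampling noise in each of the 24 groups (chi-square per degree of freedom of 6.73 to 20.5 over genes).

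Counts were tested in R 4.3.3 with edgeR 4.0.16 (quasi-likelihood test, TMM, filterByExpr by group with a minimum count of 10 and a minimum total of 15), in 1 fit per line (24 libraries, 16759 genes in Kelly and 14661 in NGP) and 1 joint fit (48 libraries, 17343 genes) for differences between the lines. Groups of 2 share 1 estimate of the spread. The Benjamini-Hochberg adjustment ran over all genes of a comparison (threshold 0.05), and the SE was recovered from the fold change and the F value of its test (the size of the log2 change over the root of F). FPKM is TMM-scaled CPM per kilobase of the exon length in the files. The 3 h libraries enter the fits but were not tested. DESeq2 1.42.0 (with its local dispersion fit where the parametric one was poor), limma-voom (limma 3.58.1), the scalings by ERCC, by library size and by DESeq2's size factors (the RLE method), no filter, a replicate block and leaving out each library were alternatives. Simulated counts were used to test only the NGP fit, in 1 contrast, that of STM2457 against DMSO before actinomycin D. The Kelly and joint fits and the other contrasts were not tested on simulated counts. The members and the gene lists were chosen with earlier results of these data known.

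Named with values in each library were MKI67, TOP2A, CCNB1, CDK1, PLK1, AURKA, CDC20, FOXM1, KIF20A and BUB3 where the result turns on them, the highest and lowest member of a comparison and the members called where few were. From other lists up to 3 called genes of smallest adjusted p were named per comparison. Motifs were searched by exact letters.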

Additional observations from a re-analysis of the deposited data

Results flagged for a closer look

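Each value here is a difference between durations or between the lines that passed a test of the difference itself (the quasi-likelihood test of edgeR, adjusted after Benjamini and Hochberg), on the TMM scale. Groups of 2 do not allow a check for single libraries far from the others.

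In Kelly the STM2457 effect was larger at 6 days than at 3 days for 8 members: RACGAP1 by 0.76, ESPL1 by 0.66, BUB1B by 0.54, KIF11 by 0.53, FOXM1 by 0.48, TOP2A by 0.38, MKI67 by 0.37 and CENPF by 0.35 (log2). Over all genes 0.68% had a larger effect in Kelly. BUB1B lost its call in every refit with a library left out. With ERCC scaling FOXM1, MKI67, TOP2A, CENPF, KIF11 and BUB1B turned negative. In NGP the effect was larger at 6 days for 36 members, where 1.75% of genes had a larger effect. PRC1 was at 1.64, AURKA at 1.27, CCNB2 at 1.17, HMMR at 1.11, MKI67 at 0.54 and FOXM1 at 0.49.

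Between the lines the 6-day effect was larger in NGP for 5 members: HMMR by 1.03, CCNB2 by 0.87, KIF20A by 0.75, ANLN by 0.63 and CENPF by 0.24. Over all genes 0.692% had a higher difference, and CENPF lost its call in every refit with a library left out. The change from 3 to 6 days in DMSO was lower in NGP than in Kelly for 14 members, where 1.19% of genes were lower. Among them were CENPA (−1.12), KIF20A (−1.03), CCNB2 (−0.97), CCNB1 (−0.75), TOP2A (−0.45) and MKI67 (−0.32), and CENPA lost its call in most refits. The change over 6 h of actinomycin D in DMSO was higher in NGP for 21 members, where 3.41% of genes were higher. Among them were AURKA (1.28), SGO2 (0.94), HMMR (0.74), KIF23 (0.73) and MKI67 (0.63).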

How the results depend on the processing

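With groups of 2 the spread comes mainly from the shared estimate, and NUSAP1, at 0 to 86 fragments per library, could not show a change at this depth. DESeq2's size factors kept all 26 counts of called members within 1.5 times, as did the replicate block. Same-numbered libraries did not deviate together (correlations of −0.04 to 0.03 in each line over 66 group pairs, 0 above 0.1). This check cannot exclude that they share a culture or a batch, which the labels do not give. The block gave 20 calls for the Kelly and 39 for the NGP STM2457 effect at 6 days, and 30 (Kelly) and 45 (NGP) for DMSO over time.

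ERCC scaling moved most. The share of all genes called was not counted on this scale, so its counts do not set the members apart from other genes. Counts of called members became 21 and 5 for the Kelly effect at 3 and 6 days, 5 for the NGP effect at 3 days, 3 for Kelly DMSO over time, 21 (Kelly) and 34 (NGP) for STM2457 over time, 13 for the Kelly effect at 6 against 3 days, 49 for actinomycin D in Kelly 6-day DMSO cells, 48 and 43 in Kelly STM2457 cells at 3 and 6 days, and 42 and 46 in NGP STM2457 cells. For the decay difference they became 33 and 31 (Kelly) and 0 at 3 days for NGP, and between the lines 9 and 16 for the effect at 3 and 6 days and 43 for DMSO over time. Medians that turned were those of the Kelly 3-day effect (0.32), the Kelly effect difference (−0.26), actinomycin D in NGP DMSO cells (−0.59 and −0.79) and 3-day STM2457 cells (−0.55), the 6-day decay difference (0.59 in Kelly, 0.075 in NGP) and the NGP 3-day decay difference (0.046). In the Kelly effect difference FOXM1 became −0.17, MKI67 −0.29, TOP2A −0.27, BUB1B −0.12, CENPF −0.30 and KIF11 −0.12. After actinomycin D, FOXM1 became −0.80 (Kelly DMSO 6 days), −0.25 (Kelly STM2457 3 days), −0.39, −0.84, −0.085 and −0.15 (NGP DMSO 3 and 6 days, STM2457 3 and 6 days). TOP2A became −1.04, −0.59 and −0.37 (Kelly DMSO 6 days, STM2457 3 and 6 days) and −0.10, −0.42, −0.15 and −0.18 in NGP. HMMR became −0.17 and −0.19 and MKI67 −1.02 (6 days) in NGP DMSO cells. Of 224 values of genes from the other lists that passed a test, ERCC scaling turned 55 and the other scalings and tools 0.

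Library-size scaling gave 2 calls for the Kelly 3-day effect, 4 for the Kelly effect difference and 0 for the NGP 3-day decay difference, and turned the actinomycin D medians of NGP 3-day DMSO (−0.041) and STM2457 (−0.086) cells and MKI67 in NGP 6-day DMSO cells (−0.16). Without a filter the Kelly 6-day decay difference had 0 calls. DESeq2 called 3 (Kelly) and 8 (NGP) for the 3-day effect, 2 and 9 for STM2457 over time, 16 for the Kelly effect difference, 1 and 2 for the Kelly decay difference at 3 and 6 days, 15 for the NGP one at 6 days, and 8 for the 6-day effect between the lines. limma-voom called 2 for the Kelly 3-day effect, 7 for NGP STM2457 over time, and 1 and 3 for the NGP decay difference. The cause was not tested.

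Leaving out 1 library, with the other of its group assumed to vary like the other groups, turned no named member where it had passed, and no median but that of actinomycin D in NGP 6-day STM2457 cells, which is near 0 (−0.0018). Of named members that had not passed, CCNB1, CCNB2 and HMMR (Kelly 6-day effect), CDC25B (NGP 6-day effect), CENPA (Kelly DMSO over time) and CDC20 (actinomycin D in Kelly 6-day DMSO cells) changed sign in some refits. It left 0 to 1 calls for the Kelly and 0 to 1 for the NGP 3-day effect, 9 to 12 for the Kelly 6-day effect, 2 to 3 for NGP STM2457 over time, 2 to 6 for the Kelly effect difference, 14 to 22 and 14 to 19 for actinomycin D in NGP STM2457 cells at 3 and 6 days, 0 to 1 for the Kelly 6-day, 1 to 2 for the NGP 3-day and 2 to 7 for the NGP 6-day decay difference, and 2 to 4 (6-day effect) and 5 to 11 (DMSO over time) between the lines.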

Other observations

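Outside the 50 members, FEN1, the flap endonuclease of DNA replication, was the only gene of the other lists that passed the test of the decay difference (the change over 6 h of actinomycin D in STM2457 cells minus that in DMSO cells) at both durations in both lines. Its difference was 0.89 ± 0.17 (SE) at 3 days and 1.57 ± 0.17 at 6 days for Kelly, and 0.92 ± 0.16 at 3 days and 0.74 ± 0.16 at 6 days for NGP, with adjusted p of 0.00087, 1e-12, 0.00015 and 0.0014 in edgeR's quasi-likelihood test (2 libraries a group). In DMSO cells of Kelly its transcript fell over those 6 h by 0.89 ± 0.12 at 3 days and by 1.57 ± 0.13 at 6 days relative to the other genes. The difference passed under each scaling, tool, filter and block run, and lay between 0.49 (Kelly 3 days) and 2.27 (Kelly 6 days) on the ERCC scale. Leaving out single libraries was not run for FEN1, which was named after its values were seen.

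Among 40 other G2 and mitosis genes, 15 were lower and 5 higher after 6 h of actinomycin D in Kelly 3-day DMSO cells (median −0.35), and 13 lower and 10 higher in NGP (median −0.01). Over all genes 15.6% were lower and 14.4% higher in Kelly, and 18.4% lower and 19% higher in NGP. The counts of higher genes in this list are near those shares. HJURP, the chaperone that loads CENPA at centromeres, fell by 2.60 ± 0.21 (SE) in Kelly and by 1.54 ± 0.17 in NGP. FAM83D, a spindle protein, changed by −2.79 ± 0.31 in Kelly and by −2.67 ± 0.25 in NGP. WEE1, the kinase that inhibits CDK1, fell by 2.19 ± 0.19 in NGP. All 3 fell under each scaling run. They were named for their small adjusted p among the called genes of this list, so they do not stand for it. The Kelly value of WEE1 and the genes called higher are not described here. Of 24 genes of G1/S and DNA replication, 10 were higher and 6 lower in Kelly (median 0.23), and 12 higher and 6 lower in NGP (median 0.26), on the TMM scale, where ERCC scaling lowers all genes. Against the same shares of all genes, the 6 lower genes in each line are near the background.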
